A study of Mus musculus with 15 samples.

Results

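The comparison described here set the transit amplifying cells (TA) against the definitive differentiated cells (D) of the blood vessels of a mouse melanoma, the second of 2 steps from the endovascular progenitor (EVP) to a mature endothelial cell. All 5 TA and all 5 D libraries of the 15 libraries were used, and the 5 EVP libraries served as the reference for the first step. The EVP libraries were also part of the fit, so they enter the estimate of spread behind the p-values of TA against D. B16-F0 melanoma cells were injected into the skin of adult CAG-GFP mice, which carry GFP in every host cell, and tumors were taken after 15 days. All populations were sorted as GFP+ host cells that lacked the blood lineage markers (Lin-) and carried CD34. Within this gate EVP cells were CD31lo VEGFR2lo, TA cells CD31int VEGFR2lo and D cells CD31hi VEGFR2hi. RNA from each sort was amplified and sequenced, and the measured value was the read count of a gene normalized for the depth of the library. The populations are gates on surface markers, so each library is a mean over all cells in its gate, and the labels do not say which replicates came from separate mice. The p-values therefore measure the spread between these samples only. Of 25549 genes tested, 3199 (12.5%) passed an adjusted p of 0.05 (limma, Benjamini-Hochberg), 2098 (8.21%) higher in TA and 1101 (4.31%) higher in D. The TA and D libraries did not overlap for 2364 genes (9.25%), of which 1420 (5.56%) were higher in TA and 944 (3.69%) higher in D.

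Endothelial cells line vessels and are held together by junction proteins such as CD31, while receptors for VEGF and angiopoietins on their surface control sprouting and quiescence. ETS and SOX family transcription factors keep this identity. Fibroblasts and other mesenchymal cells build the interstitial matrix of fibril collagens and elastic fibers, and mural cells (pericytes and smooth muscle) wrap the vessel from outside. Between them and the endothelium lies the basement membrane of collagen IV and laminins.

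The TA libraries held between 9692677 and 24425865 reads on genes and the D libraries between 12456809 and 26513073. Replicate 1 had the fewest reads of both populations, and of 1406 olfactory receptor genes, 75.9% had a read in TA replicate 1 and 84.4% in that of D, against 2.7% in D replicates 4 and 5. TA replicates 2 and 3 also reached 51.7% and 65.1%, and D replicates 2 and 3 reached 21.5% and 19.9%. On the largest axis of variation among the TA and D libraries (first principal component, 40.4% of the variance) D replicate 1 lay at -157.6. This is within the range of the TA libraries, -263.6 to 25.75, while D replicates 2 to 5 lay between 155 and 161.3. The cause of this was not tested. Counts without replicate 1 of each population are therefore also given for all genes and for some of the lists. The counts of other lists can differ in that fit. As a check of the gates, *Pecam1* (CD31; chr11:106654217-106750628, GRCm38) had 15410, 3137, 7783, 4502 and 372 normalized counts in TA replicates 1 to 5 and 21780, 19110, 21690, 32190 and 26450 in D. *Kdr* (VEGFR2) had 9699, 2042, 4425, 4425 and 408 in TA and 15220, 16860, 16210, 26250 and 24620 in D. Both transcripts were higher in every D library than in every TA library, in the direction of the gates that chose the cells. TA replicate 5 had the lowest values and TA replicate 1 the highest, and on the log scale the TA libraries differed among themselves more than the D libraries did. *Cd34*, present on all sorted cells, was at 10600 ± 5676 in TA and 27040 ± 4336 in D (mean ± SD, n = 5). *Ptprc* (CD45), a blood cell marker, was at 499.8, 268, 1862, 4460 and 1322 in TA and 389.9, 257, 119, 168 and 169.8 in D.

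A program that fell in every tested member at this step was that of fibroblasts. All 21 fibroblast identity genes tested were higher in TA, none of their libraries overlapped, and their median log2 difference (D minus TA, on log2(normalized count + 1)) was -7.04, while the median over all tested genes was -0.24. The same 21 were called without replicate 1. *Dcn* (decorin, a proteoglycan that binds collagen fibrils; chr10:97479609-97518143) had 18830, 63920, 23500, 36680 and 30400 normalized counts in TA replicates 1 to 5 and 270.5, 266, 177, 126 and 71.3 in D. Its lowest TA library stood far above its highest D library, the mean fell 190.1-fold and the log2 difference was -7.59 (SE 0.39, adjusted p = 4.21e-09). *Pdgfra*, the receptor that marks fibroblasts, had 681, 2665, 1074, 2933 and 2320 in TA and 46.7, 59.6, 0, 0.751 and 7.86 in D. In D replicate 3 it was at 0, and D replicates 1 and 2 kept the highest values (log2 difference -7.62, adjusted p = 1.77e-05). *Pi16*, a marker of adventitial fibroblasts, was at 6672 ± 2901 in TA and 16.2 ± 17.3 in D (adjusted p = 1.6e-07). In bulk libraries of this kind, fewer cells of a type and less RNA per cell cannot be told apart.

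The matrix that such cells secrete moved with them. Of 15 fibril collagen genes 14 were higher in TA and 0 in D, with a median log2 difference of -5.47, and of 16 genes of elastic fibers and microfibrils 14 were higher in TA (median -4.61). Small leucine-rich proteoglycans followed, with 9 of 12 higher in TA (median -4.4). *Ogn* (osteoglycin), of this group, had 1906, 6308, 2169, 3309 and 3129 normalized counts in TA and 4.12, 0, 3.13, 1.5 and 10.3 in D. No D library reached 11 normalized counts, and the log2 difference was -9.74 (SE 0.52, adjusted p = 4.21e-09). *Lox*, which cross-links collagen and elastin, had 10820, 13300, 13730, 5327 and 22410 in TA and 149.6, 48.2, 0.782, 6.76 and 38.1 in D, a spread among D libraries that ran from under 1 to 149.6 (adjusted p = 8.51e-07). Enzymes and chaperones that process collagen were less uniform, with 11 of 20 higher in TA and 1, *Plod1*, higher in D.

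Complement and chemokine genes fell in part with the matrix. Of 14 genes of the complement system 10 were higher in TA and 0 in D (median -3.53). *C3*, its central component, was at 8757 ± 2977 in TA and 60.7 ± 57.4 in D (log2 difference -7.61, adjusted p = 5.72e-08). *C4b*, *C1s1*, *C1ra* and the inhibitor *Serping1* also passed, whereas *C7*, *Cfp*, *Cd59a* and *Cd46* did not. Of 25 chemokine genes 12 were higher in TA and 0 in D (median -2.38). *Cxcl13*, which draws B cells (chr5:95956951-95961068), had 1456, 1240, 2471, 766 and 816 in TA and 22, 0, 0, 0.751 and 3.63 in D. Only D replicate 1 kept more than 4 normalized counts of it (log2 difference -8.76, adjusted p = 2.84e-07). *Cxcl1*, which recruits neutrophils, was at 5816 ± 3486 in TA and 612 ± 398 in D, and *Ccl2*, which recruits monocytes, at 10440 ± 4051 and 1494 ± 374. *Cxcl12*, which retains progenitors near vessels, did not pass, at 7595 ± 4648 in TA and 5855 ± 2165 in D (adjusted p = 0.863).

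A list of angiocrine factors, ligands through which a cell acts on its neighbors, was taken from the study, which chose it on these samples, so its direction is not independent evidence. Of its 19 genes 14 were higher in TA and 0 in D, with a median log2 difference of -3.24, or -3.19 with the 2 genes that no D library held above 3 reads set at the floor. *Wnt11*, a ligand of non-canonical Wnt signaling, had 102, 124, 81.5, 106 and 92.2 normalized counts in TA. It was at 0 in 4 D libraries and at 1.5 in D replicate 4, so that its mean in TA was at least 38.9-fold higher than the level of 3 reads in D. *Vegfd*, a ligand of VEGF receptors, had 548, 2772, 645, 800 and 862 in TA and 46.7, 24.5, 0, 1.5 and 7.86 in D (adjusted p = 1.65e-05). TA replicate 2 was the highest by a wide margin, but the lowest TA library was also above every D library. *Fgf7*, *Hgf* and *Wnt5a*, growth factors made by mesenchymal cells, were at 719.7 ± 254, 251 ± 186 and 423 ± 222 in TA and at 11.6 ± 9.13, 23.8 ± 31.7 and 25.1 ± 24.7 in D. *Fgf10*, *Fgf11*, *Fgf16*, *Fgf21* and *Fgf23* did not pass. Secreted antagonists of Wnt signaling were higher in TA for 5 of 7, led by *Sfrp4* at 2969 ± 1513 in TA and 5.58 ± 11.5 in D, while *Dkk2* was higher in D. Among 9 receptors named by the study 8 were higher in TA, with *Tgfbr2* the exception. The study also chose these receptors, and the stem cell, quiescence and cytokine target genes below, on these samples. Their direction is therefore not independent evidence either. *Il33*, an alarmin of stromal nuclei, had 3058, 5266, 8680, 4569 and 4854 in TA and 43.9, 0, 35.2, 30.1 and 34.5 in D, and its receptor *Il1rl1* was at 1811 ± 821 in TA and 13 ± 16.3 in D (adjusted p = 1.21e-06 and 8.76e-06). *Il33* belongs to 6 stem cell and quiescence genes that the study named, of which 5 were higher in TA, and of its 7 cytokine targets 6 were, *Cdkn1c* and *Socs1* being the respective exceptions. Only 4 cytokine targets passed without replicate 1 of every population or after quantile normalization. The count was also 4 without TA replicate 4 or D replicate 1, 2 or 5.

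Proteases that cut matrix fell in part. Of 27 proteases and inhibitors 13 were higher in TA and 2, *Adamts1* and *Adamts7*, were higher in D (median -2.03). With edgeR 12 were higher in TA and 1 in D, and with DESeq2 14 and 1. Without replicate 1 of every population the counts were 14 and 4. *Mmp3* (stromelysin) had 7053, 21720, 6794, 8967 and 7056 normalized counts in TA and 192, 189, 0, 1.5 and 35.7 in D (log2 difference -8.83, adjusted p = 4.72e-05). *Mmp10*, its close relative, had 17.2, 773, 596, 288 and 1069 in TA and 8.24, 0, 0, 0 and 2.42 in D (adjusted p = 0.000141), and both genes kept a few reads at most in D replicates 3 and 4. *Mmp13* (collagenase), of the same chromosome region, had 0, 531, 48, 708 and 285 in TA and 41.2, 78.4, 9.38, 71.4 and 14.5 in D and did not pass (adjusted p = 0.622). Without TA replicate 1, where it was at 0, the log2 difference was -3.03 and the adjusted p 0.0158, and with DESeq2 on all libraries the adjusted p was 0.021. The membrane protease *Mmp14* was at 5786 ± 1902 in TA and 7486 ± 1072 in D (adjusted p = 0.261). The AP-1 motif TGAGTCA was searched on both strands within the 250 bases before each start in RefSeq promoter sequences (GRCm38.p6). Promoters of these collagenase and stromelysin genes hold a match to it. They are printed 5′ to 3′ on the strand of the gene, with the match in capitals, to show where the letters lie in members that did and did not pass.
*Mmp3* (chr9:7445722-7445821, + strand): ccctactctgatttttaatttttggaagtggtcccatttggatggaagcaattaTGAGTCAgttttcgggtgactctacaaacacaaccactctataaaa
*Mmp10* (chr9:7502232-7502331, + strand): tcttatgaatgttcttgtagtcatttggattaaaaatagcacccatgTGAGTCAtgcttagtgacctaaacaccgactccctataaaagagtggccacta
*Mmp13* (chr9:7272414-7272513, + strand): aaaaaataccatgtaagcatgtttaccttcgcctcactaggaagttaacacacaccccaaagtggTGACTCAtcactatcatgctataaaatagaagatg
The match begins 46 bases before the start in *Mmp3*, 63 in *Mmp10* and, on the other strand, 35 in *Mmp13*. The same letters were found in 5.33% of 2009 promoters of genes higher in TA, in 4.02% of 1095 promoters of genes higher in D, in 3.86% of the 18888 promoters of tested genes and in 4.46% of all 32851 promoters. Of the genes higher in TA, 1502 had a promoter in the table, and of those higher in D, 816. These are matches of letters and say nothing about binding.

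**Figure D1:**
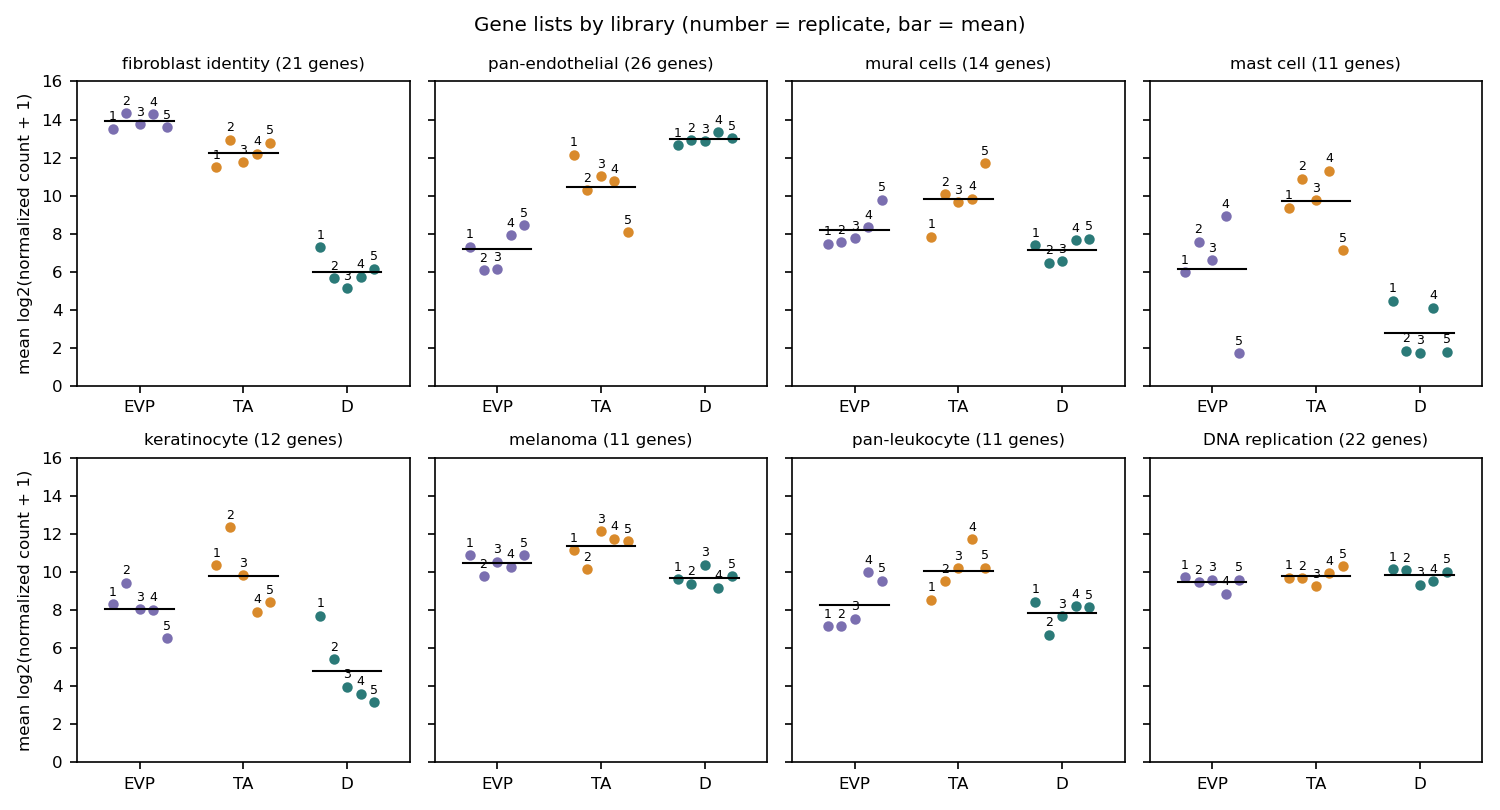
Mean log2(normalized count + 1) over the genes of 8 lists (vertical axis) in each EVP, TA and D library (horizontal axis), with the replicate number above each point and a bar at the mean of 5 libraries. Fibroblast genes drop in all 5 D libraries to between 5.14 and 7.30, endothelial genes rise to between 12.65 and 13.35, mast cell, mural and keratinocyte genes are highest on average in TA, and DNA replication genes overlap between TA and D.

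Transcription factors of mesenchyme fell for the most part but not as a block. Of 22 tested, 11 were higher in TA and 3 (*Zeb1*, *Tcf4* and *Meox1*) were higher in D. *Prrx1*, of the limb and fibroblast mesenchyme, was at 2361 ± 899 in TA and 38.6 ± 29.4 in D, and *Twist2* at 72 ± 40.6 and 1.15 ± 1.58. The zinc finger pair *Zeb1* and *Zeb2*, repressors of epithelial genes, moved in opposite directions. *Zeb2* had 852, 1420, 933, 1290 and 1924 normalized counts in TA and 181, 161, 60.2, 148 and 202 in D (log2 difference -3.13, SE 0.30, adjusted p = 1.62e-06). *Zeb1* had 1786, 1166, 943, 1192 and 1189 in TA and 2813, 3459, 2986, 3044 and 3121 in D (log2 difference 1.33, SE 0.16, adjusted p = 2.47e-05). For neither gene did a TA library overlap with a D library.

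**Figure D2:**
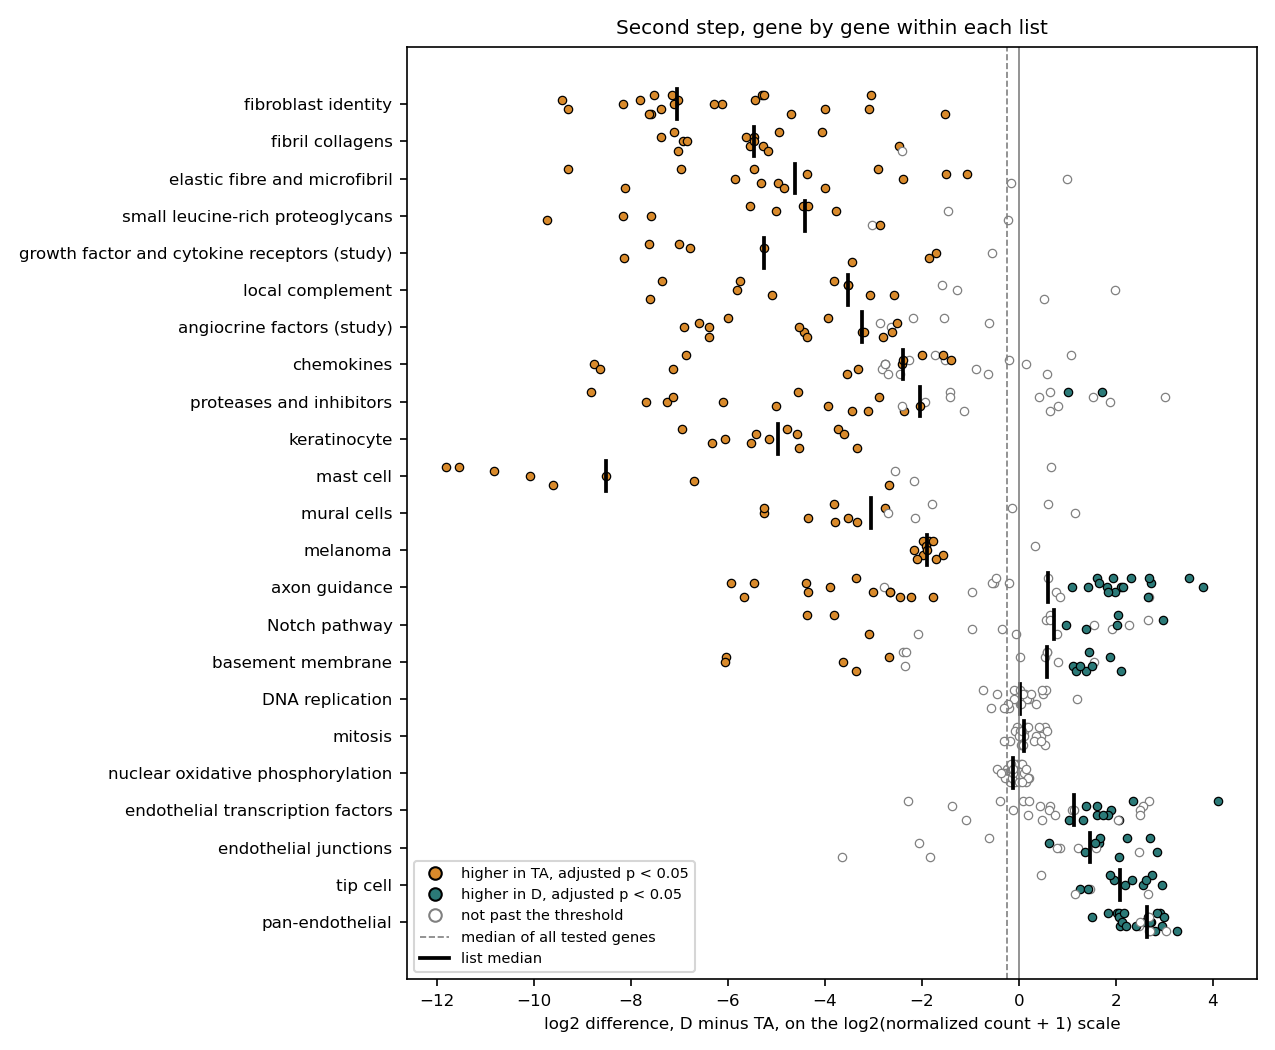
Log2 difference, D minus TA, of each tested gene (points, horizontal axis) in 23 lists (rows), filled where the adjusted p was under 0.05 and open otherwise. Black ticks mark list medians and the dashed line the median of all tested genes, -0.24. Fibroblast genes lie between -9.42 and -1.52 and are all filled, while no gene of DNA replication, mitosis or nuclear oxidative phosphorylation is.

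The program gained was endothelial and smaller in log2 size. Of 26 pan-endothelial genes 20 were higher in D and 0 in TA, with a median log2 difference of 2.64, and for 23 the libraries did not overlap. Without replicate 1 the count was 19, but it was 13 without D replicate 4 and 12 with edgeR. *Plvap*, which forms the diaphragms of endothelial pores, had 24820, 5913, 13480, 11780 and 1139 normalized counts in TA and 43910, 58730, 49830, 78690 and 73940 in D (log2 difference 2.96, SE 0.68, adjusted p = 0.00663). *Nos3*, the endothelial nitric oxide synthase, had 1805, 353, 308, 468 and 47.3 in TA and 2906, 3012, 2175, 3263 and 2286 in D (adjusted p = 0.0132, and 0.0507 with edgeR). *Clec14a*, an endothelial surface lectin, was at 459.7 ± 369.9 in TA and 2998 ± 762 in D (adjusted p = 0.00396). In each case TA replicate 1 came nearest to D and TA replicate 5 was lowest. Over the whole list the mean log2 level was 12.16, 10.28, 11.03, 10.77 and 8.07 in TA replicates 1 to 5, between 12.65 and 13.35 in D, and between 6.08 and 8.44 in EVP. TA replicate 5 thus lay within the range of the EVP libraries on this list.

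Several well-known endothelial genes did not pass although every D library exceeded every TA library. *Tie1* was at 1889 ± 1872 in TA and 7465 ± 1848 in D (adjusted p = 0.0581), *Erg* had an adjusted p of 0.0648, *Podxl* of 0.0691 and *Robo4* of 0.107. *Cldn5*, the main claudin of endothelial tight junctions, and *Sox18* overlapped between the populations (adjusted p = 0.126 and 0.0968). Of 31 endothelial transcription factors 11 were higher in D and 0 in TA (median 1.14). *Fli1*, an ETS factor of endothelial cells, had 2399, 975, 1286, 1192 and 294 in TA and 3948, 4385, 3224, 4566 and 5176 in D (adjusted p = 0.00331). *Ets1*, of the same family, had 5159, 2113, 5584, 6835 and 4877 in TA and 11500, 15390, 14180, 11700 and 18490 in D (adjusted p = 0.00107), and here TA replicate 2 rather than 5 was lowest. *Bcl6b*, *Foxo1*, *Mecom*, *Epas1* and *Mef2c* also passed. *Sox17*, which acts in arteries, had 1353, 578, 858, 351 and 27.4 in TA and 1737, 2784, 2212, 2278 and 1950 in D without passing (log2 difference 2.56, adjusted p = 0.067), though the adjusted p was 0.0304 without TA replicate 1. The flow-responsive *Klf2* was at 261 ± 156 in TA and 282 ± 151 in D (adjusted p = 0.878), and *Klf4* at 498 ± 375 and 207 ± 80.5 (adjusted p = 0.111).

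Receptors and junctions rose in part. Of 18 junction genes 9 were higher in D and 0 in TA (median 1.47), among them *Esam*, *F11r*, *Tjp1*, *Gja1* and *Gja5*, whereas *Ocln*, *Cgn* and *Gjc1* had negative differences and did not pass. Of 14 tip cell genes, which mark the leading cells of sprouts, 10 were higher in D (median 2.08), but only 4 without TA replicate 2, D replicate 2, 3 or 4, or with edgeR. *Esm1* was at 6068 ± 5847 in TA and 21370 ± 4516 in D, *Apln* at 7141 ± 8757 and 19390 ± 5578, and *Angpt2*, an antagonist of the receptor TIE2, at 14740 ± 12260 and 44460 ± 9284 (adjusted p = 0.0396, 0.0153 and 0.0429). Leaving out 1 library at a time ended the call of *Esm1* in 8 of 15 fits and that of *Angpt2* in 10, but that of *Apln* in 0. Of the arterial markers 6 of 14 and of the venous markers 6 of 10 were higher in D, but the arterial count was 3 without TA replicate 5 or D replicate 4. *Gja5*, *Efnb2* and *Notch4* were among the first and *Ephb4*, *Flt4* and *Selp* among the second. *Vcam1* was the exception in the venous list and was higher in TA. *Cd36*, a fatty acid transporter of capillaries, had 7525, 2558, 7489, 8894 and 1062 in TA and 13850, 29400, 31870, 36100 and 28220 in D (log2 difference 2.65, adjusted p = 0.00186). Its partner in lipid handling *Gpihbp1* did not overlap but had an adjusted p of 0.0507. Receptors coupled to G proteins, in a list that also holds the accessory protein gene *Ramp1*, divided. *S1pr1*, *Ednrb*, *Calcrl* and *Adgrl4* were among 10 of 25 higher in D, while *Ednra*, *S1pr3* and *Ramp1* were the 3 higher in TA. *Ednra*, the endothelin receptor of smooth muscle, was at 1160 ± 1026 in TA and 54.7 ± 43.9 in D, and *Ednrb*, that of the endothelium, at 5346 ± 3618 and 22510 ± 6350.

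A TGF-beta co-receptor and a VEGF receptor offer an example of promoters with the ETS core. *Eng* (endoglin) had 12110, 3400, 4553, 5053 and 3147 normalized counts in TA and 17210, 18700, 16220, 32850 and 24220 in D (log2 difference 2.09, adjusted p = 0.000392). *Flt1* (VEGFR1) had 16740, 5140, 11630, 7538 and 2752 in TA and 22150, 27730, 36150, 44240 and 33270 in D (log2 difference 2.12, adjusted p = 0.0157). Both rose in every D library above the highest TA library. Their promoters hold the ETS letters AGGAAGT, searched on both strands, 53 bases before the start.
*Eng* (chr2:32646495-32646594, + strand): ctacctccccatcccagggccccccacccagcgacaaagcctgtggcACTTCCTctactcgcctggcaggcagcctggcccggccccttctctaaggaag
*Flt1* (chr5:147726012-147726111, - strand): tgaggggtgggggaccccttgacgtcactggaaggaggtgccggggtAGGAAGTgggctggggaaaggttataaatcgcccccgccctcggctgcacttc
Capitals mark the match. Across promoters the share with these letters was 7.03% for genes higher in D, 8.01% for genes higher in TA, 7.59% for tested genes and 7.69% for all promoters. In the same order the letters AACAATG of SOX factors were found in 1.64%, 1.89%, 2.46% and 3.29%, those of TEAD factors (GGAATGT) in 3.2%, 3.29%, 2.95% and 3.25%, and those of KLF factors (CACCCGC) in 7.21%, 6.52%, 5.39% and 4.06%.

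The largest rises and falls were taken among called genes whose TA and D libraries did not overlap. On the log2 scale the rises were mostly of genes low in TA, although *Lrg1* and *Cyyr1* had means of 314 and 197.1 normalized counts there. *Selp* (P-selectin, which catches leukocytes; chr1:164115264-164150026) had 17.2, 3.52, 3.35, 94 and 0 normalized counts in TA and 216, 962, 188, 488 and 157 in D. Its mean was 17-fold higher in D (log2 difference 5.28, SE 1.01, adjusted p = 0.00187), and *Sele* (E-selectin) rose from 29.4 ± 9.99 to 226 ± 161 (adjusted p = 0.0229). *Chga* (chromogranin A, a protein of secretory granules; chr12:102554969-102565028) had 1.72, 0.879, 0, 1.57 and 0.623 in TA and 22, 94.7, 151, 30.1 and 74.3 in D. No TA or EVP library held more than 3 reads of it, and its D mean was at least 24.2-fold higher than that level (adjusted p = 0.000179). *Lrg1*, a secreted glycoprotein that modifies TGF-beta signaling in vessels, had 70.7, 373, 212, 879.9 and 34.9 in TA and 1426, 5653, 2719, 2951 and 2543 in D (adjusted p = 0.00136). *Ripply3*, a transcriptional repressor of development, had 36.2, 26.4, 3.35, 15.7 and 10.6 in TA and 139, 194, 163, 241 and 162 in D (adjusted p = 0.000199). That the lowest D library of these genes stood above the highest TA library follows from how they were chosen. *Crhbp*, *Tcf15*, *AU021092*, *Tmem200b*, *Cyyr1*, *Nkapl*, *Plac1*, *Tmem212*, *Map10*, *AC139750.2* and *Nodal* completed the 15 largest rises. Of these 11, only *Cyyr1* also passed with edgeR, and *Map10* lost its call without any of 11 of the libraries. *Tcf15*, a partner of fatty acid uptake in endothelium, was at 5.26 ± 9.8 in TA and 52 ± 20.8 in D, and *Nodal*, a TGF-beta ligand, at 11.3 ± 13.2 and 74.1 ± 47.5. The 15 largest falls were *Cma1*, *Tpsb2*, *Cpa3*, *Sfrp4*, *Mcpt4*, *Ogn*, *Tpsab1*, *Serpinb2*, *Pi16*, *Sfrp2*, *Mfap5*, *Lox*, *Cilp*, *Dpep1* and *Mmp3*.

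**Figure D3:**
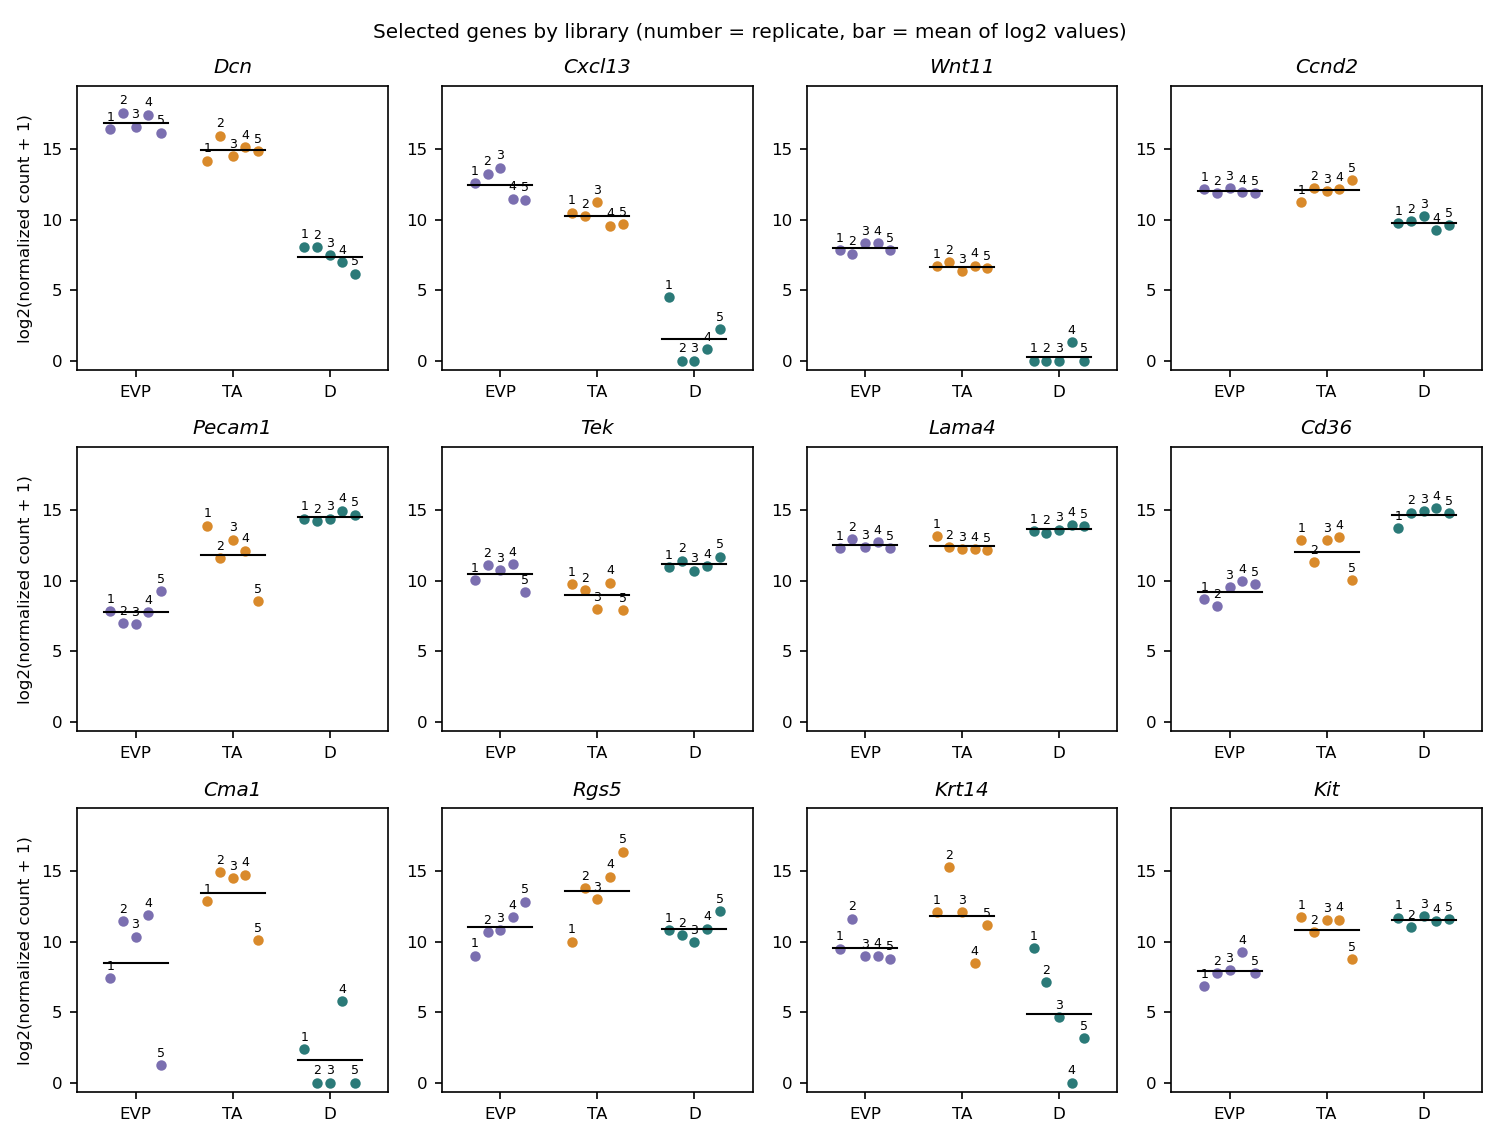
Log2(normalized count + 1) of 12 genes (vertical axis) in each EVP, TA and D library (horizontal axis), with the replicate number above each point and a bar at the mean of the log2 values of 5 libraries. *Dcn*, *Cxcl13*, *Wnt11* and *Ccnd2* are lower in all D libraries than in any TA library, *Pecam1*, *Tek*, *Lama4* and *Cd36* are higher, and *Kit* overlaps between TA and D.

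Several families exchanged members instead of moving together. In the basement membrane 8 of 22 genes were higher in D and 5 higher in TA (median 0.579). The chains of the vessel wall rose, among them *Col4a1*, *Col4a2*, *Lama4*, *Lama5*, *Lamb1*, *Lamc1*, *Nid2* and *Hspg2* (perlecan). *Lama2*, of muscle and mesenchyme, *Lamb3*, *Lamc3*, *Col4a4* and *Col4a5* fell. *Lama4* (chr10:38965515-39110188) had 9123, 5295, 4826, 4786 and 4680 normalized counts in TA and 11730, 10890, 12750, 16280 and 15290 in D (log2 difference 1.25, SE 0.19, adjusted p = 0.000283). TA replicate 1 alone approached the D libraries. *Lama2* was at 701 ± 256 in TA and 35.4 ± 64.1 in D (adjusted p = 0.00017), and *Col4a1* at 28300 ± 11760 and 59190 ± 16060 (adjusted p = 0.03, a call lost in 6 of the 15 fits that left out 1 library).

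The Notch pathway divided by receptor. Of 20 genes 5 were higher in D and 3 higher in TA, but 5 in all passed without TA replicate 3, TA replicate 5 or D replicate 4, and edgeR called 2 higher in D. *Notch4*, the endothelial receptor, had 1101, 299.8, 525, 909.7 and 53.5 in TA and 2330, 3592, 3666, 4491 and 1899 in D (log2 difference 2.98, adjusted p = 0.00455). *Notch3*, the mural receptor, had 72.4, 375, 239, 379 and 1939 in TA and 46.7, 12.2, 7.82, 36.1 and 43.5 in D (log2 difference -3.80, adjusted p = 0.00302, and 0.122 after quantile normalization). TA replicate 5 held the most *Notch3* and the least *Notch4*. *Notch2* and the target *Heyl* fell as well, whereas *Notch1*, the ligand *Dll1* and the targets *Hes1* and *Nrarp* rose. *Dll4*, the ligand of tip cells, was at 1959 ± 1669 in TA and 8091 ± 2984 in D (adjusted p = 0.0539).

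Ligands and receptors of the VEGF and angiopoietin axis also parted. Of 16 genes 9 were higher in D, among them the receptors *Kdr*, *Flt1*, *Flt4* and *Tek* with the co-receptors *Nrp1* and *Nrp2* and the phosphatase *Ptprb*. Of the 4 higher in TA all were ligands (*Vegfa*, *Vegfd*, *Angpt1* and *Angpt4*), while the ligands *Vegfc* and *Angpt2* were higher in D. *Vegfc* was at 243 ± 132 in TA and 928 ± 338 in D, and *Vegfa* at 128 ± 26.5 and 30.1 ± 30.2 (adjusted p = 0.0016 and 0.00208). Among 39 axon guidance genes, many of which also steer vessels, 16 were higher in D and 13 in TA, with *Sema3c* and *Slit3* falling and *Sema3g*, *Sema6a* and *Plxnd1* rising. With edgeR 13 were higher in D and 5 in TA. Of the 39, 11 stood higher in every D library than in any TA library, against 3 the other way. Over all tested genes these shares were 3.69% and 5.56%. *Sema3c* was at 1804 ± 1157 in TA and 107 ± 129 in D. Of the BMP and TGF-beta genes 6 of 25 were higher in D, including *Id1*, *Id3*, *Smad6* and *Eng*, and 7 higher in TA, including *Id2* and *Tgfb3*. *Id1* was at 1411 ± 915 in TA and 4698 ± 1332 in D, and *Id2* at 3599 ± 1530 and 856 ± 101. The insulin-like growth factor binding proteins showed the same division, since *Igfbp3* and *Igfbp7* were higher in D and *Igfbp5* and *Igfbp6* higher in TA. *Igfbp6* was at 3134 ± 1529 in TA and 14.9 ± 12.7 in D, and *Igfbp7* at 11960 ± 5706 and 45050 ± 15580.

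**Figure D4:**
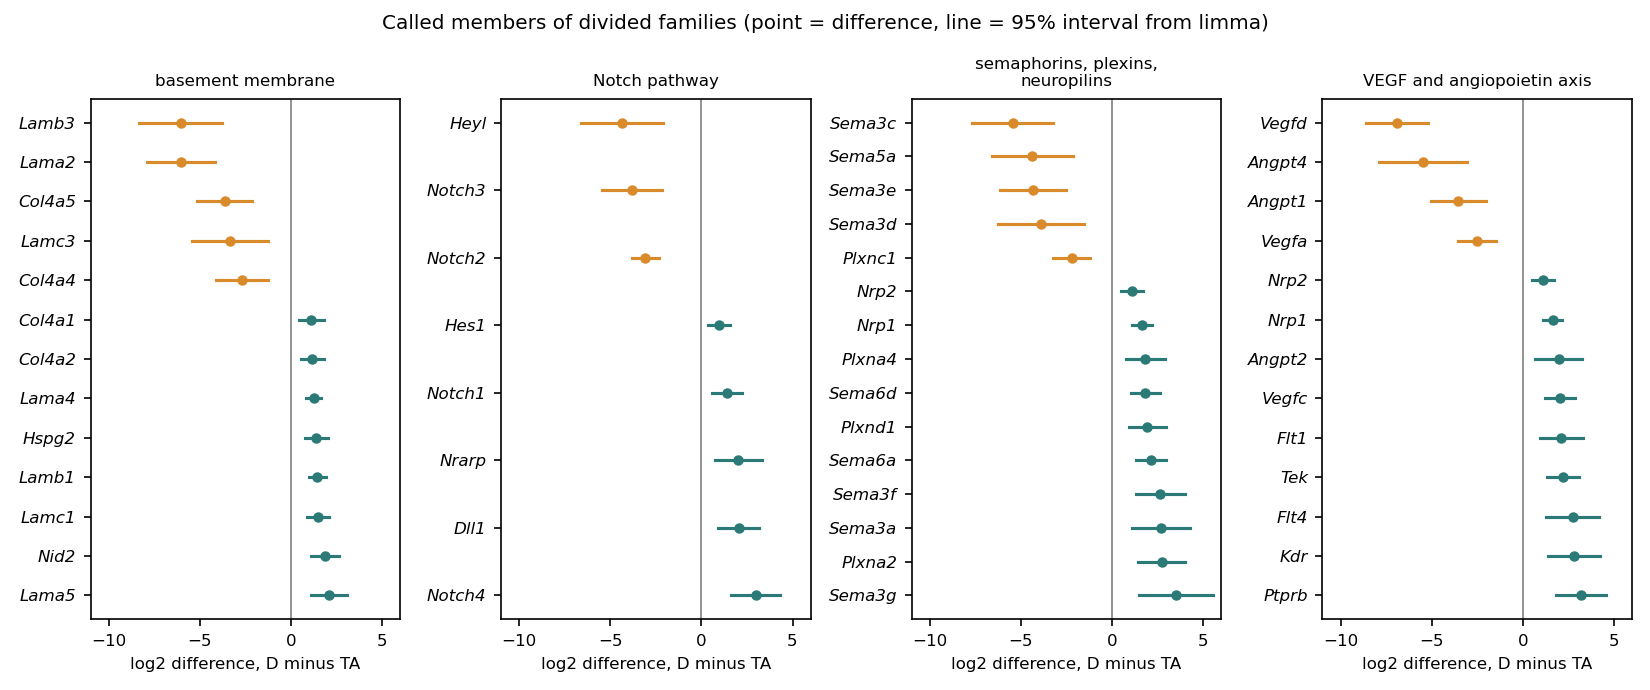
Log2 difference, D minus TA (points, horizontal axis) with the 95% interval from limma (lines) for the called members of 4 gene families (rows), in orange where higher in TA and in green where higher in D. Each family has members on both sides of 0. Only called members are drawn, so by that choice no interval crosses 0.

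Whether the second step differed from the first was tested with the contrast of D minus TA against TA minus EVP, which share the TA libraries. This passed for 526 genes (2.06% of those tested), 463 of them more negative at the second step and 63 more positive. The fibroblast list showed a median of -1.7 at the first step and -7.04 at the second, and 14 of its 21 genes passed the test of the steps. For *Dcn* the first difference was -1.92 and the second -7.59 (adjusted p of the difference between steps 0.00121). The pan-endothelial list had medians of 4.08 and 2.64 at the 2 steps, and 1 of its 26 genes, *Tek*, passed. *Tek* (TIE2, the angiopoietin receptor; chr4:94739289-94874976) had 852, 652, 251, 924 and 237 normalized counts in TA and 1967, 2763, 1689, 2104 and 3373 in D, while the EVP mean was 1578 ± 747. It was thus lowest in TA, with a first difference of -1.49 and a second of 2.21 (adjusted p between steps 0.0153). *Lama4* and *Zeb1* were level between EVP and TA (-0.11 and 0.00) and rose only at the second step (adjusted p between steps 0.0453 and 0.0221). *Ripply3* behaved alike (-0.10, then 3.53, adjusted p 0.0475). *Cd34* had a first difference of -0.83 and a second of 1.51, and the steps did not differ past the threshold (adjusted p 0.0553). This test was the most variable of all, with 193 genes without TA replicate 2, 294 without TA replicate 3 and 304 without EVP replicate 3.

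Transcripts of mast cells, mural cells, keratinocytes, melanoma cells and leukocytes were highest in TA on average and lower in D, whereas erythroid and lymphatic lists were not. Mast cell genes made the largest falls of all, with 8 of 11 higher in TA, 0 higher in D and a median of -8.51. *Cma1* (mast cell chymase; chr14:55941451-55944675) had 7656, 31100, 23460, 27710 and 1107 normalized counts in TA and 4.12, 0, 0, 53.3 and 0 in D (log2 difference -11.82, SE 1.69, adjusted p = 0.00014). It was at 0 in 3 D libraries, and the lowest TA library, replicate 5, was still above all of them. Its EVP mean was 1623 ± 1660, so the first step went the other way (4.97, adjusted p between steps 0.00749). *Tpsb2* and *Tpsab1*, tryptase genes of near-identical sequence whose reads may be exchanged, fell together. *Kit*, the mast cell growth factor receptor that endothelium also carries, did not follow. It had 3413, 1647, 3009, 3013 and 439 in TA and 3338, 2105, 3580, 2778 and 3159 in D (log2 difference 0.66, adjusted p = 0.495). The summed level of the mast cell list ran from 4908 to 106900 normalized counts in TA and from 2754 to 3769 in D.

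Mural cell genes were higher in TA for 8 of 14 and higher in D for 0 (median -3.04). *Rgs5*, a pericyte marker, had 1029, 14470, 8292, 25310 and 85850 in TA and 1826, 1407, 994, 1953 and 4625 in D and did not pass (adjusted p = 0.0556), although it did without TA replicate 1 (adjusted p = 0.00208), after quantile normalization (adjusted p = 0.0396), with edgeR (adjusted p = 0.0242) and with DESeq2 (adjusted p = 0.000576). TA replicate 5 held more of it than any other library and TA replicate 1 less than 4 of the D libraries. *Pdgfrb* was at 3962 ± 4001 in TA and 109.9 ± 85.7 in D (adjusted p = 0.00024). The channel genes *Kcnj8* and *Abcc9*, which also mark pericytes, stayed out of this fall, with 2983 ± 1952 and 1561 ± 914 in TA and 2845 ± 1841 and 2216 ± 744 in D (adjusted p = 0.93 and 0.52). After quantile normalization 5 mural genes passed, whereas 11 passed with edgeR, with DESeq2 and without replicate 1 of every population.

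All 12 keratinocyte genes were higher in TA, with 11 called without replicate 1. *Krt14*, of the basal epidermis, had 4426, 39700, 4419, 350.2 and 2346 in TA and 741, 138, 24.2, 0 and 7.86 in D (log2 difference -6.94, adjusted p = 0.00285). TA replicate 2 was the highest and TA replicate 4 the lowest, and the latter was under D replicate 1. Of 11 melanoma genes 10 were higher in TA (median -1.89), *Gpr143* being the exception, although the sort kept GFP+ host cells. *Pmel*, of melanosomes, had 24700, 20540, 49280, 27200 and 35100 in TA and 7186, 5023, 11750, 6985 and 8310 in D (adjusted p = 0.000203), the highest value of both populations being in replicate 3. Of 11 leukocyte genes 7 were higher in TA, but 4 without TA replicate 4 or 5 or D replicate 3 or 5, and 2 after quantile normalization. Of 16 macrophage genes 1 was higher in TA with limma and with edgeR and 7 with DESeq2, while 9 had an unadjusted p under 0.05 (median -1.20). *Ptprc* passed (log2 difference -2.41, adjusted p = 0.0271) but not without any of TA replicates 3, 4 and 5 or D replicates 3, 4 and 5, when the adjusted p ranged from 0.0563 to 0.0724. The class II antigen presentation gene *H2-Ab1* had 910.1, 5978, 12010, 83410 and 27760 in TA and 1304, 863, 931, 2035 and 1444 in D (adjusted p = 0.0415), with TA replicate 4 highest and TA replicate 1 within the range of D. Its call was lost without any of 11 libraries, at an adjusted p of up to 0.106. The class I genes *H2-K1* and *B2m* were at 14340 ± 5199 and 31800 ± 4960 in TA and at 14570 ± 7300 and 36280 ± 14870 in D (adjusted p = 0.964 and 0.829). The summed level of the leukocyte list ran from 10880 to 49070 normalized counts in TA and from 8904 to 13410 in D, that of the melanoma list from 73300 to 186100 and from 19710 to 51390. That of the keratinocyte list ran from 4811 to 112100 in TA and from 198.8 to 3931 in D, and that of the mural list from 14290 to 167900 and from 14700 to 27360. All 11 leukocyte and all 11 melanoma genes were above 0 in every D library, against 8 of 12 keratinocyte and 2 of 11 mast cell genes. Of 13 lymphocyte genes 3 (*Gzmb*, *Ms4a1* and *Nkg7*) were higher in TA (8 with DESeq2), and of 7 erythroid genes none passed with limma, edgeR or DESeq2 or had an unadjusted p under 0.05. Among 6 lymphatic genes *Flt4* was higher in D and *Pdpn*, which fibroblasts share, higher in TA. All of these lists moved, where they moved, in the direction of the fibroblast and matrix lists, except for *Flt4*. Their part in the differences between TA and D was not tested.

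Genes of proliferation showed no call at this step. Of 22 DNA replication genes and 22 mitosis genes none passed with limma or, for mitosis, with edgeR and DESeq2. Of the former, 3 had an unadjusted p under 0.05 (0 of the latter), edgeR called 0 and DESeq2 1. Their medians were 0.03 and 0.11, and the first became -0.04 with libraries scaled to the same total. *Mki67*, a marker of cycling cells, had 746, 1552, 800.3, 1663 and 1869 normalized counts in TA and 1910, 2296, 1633, 1557 and 1992 in D (log2 difference 0.59, 95% interval -0.05 to 1.23, adjusted p = 0.26). The interval allows a rise of up to 1.23 on the log2 scale in D. D-type cyclins, which respond to growth signals, did differ. *Ccnd2* had 2466, 4857, 4180, 4663 and 7088 in TA and 877, 961, 1208, 621 and 779.6 in D (log2 difference -2.34, SE 0.23, adjusted p = 2.47e-06). *Ccnd1* had 7124, 2095, 2555, 2931 and 3550 in TA and 9057, 6328, 4755, 10650 and 8918 in D (log2 difference 1.21, adjusted p = 0.0174), a call that was lost without TA replicate 2 or D replicate 4 (adjusted p = 0.0508 and 0.0558). *Cdkn2b*, an inhibitor of cyclin-dependent kinases, rose from 274 ± 149.5 to 754 ± 194 (adjusted p = 0.00683).

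Metabolic and stress programs changed in part or not at all. Over all tested genes 8.21% were called higher in TA and 4.31% higher in D. None of 27 nuclear genes of oxidative phosphorylation passed with limma or edgeR, 2 had an unadjusted p under 0.05 and DESeq2 called 2. Of 24 genes of glycolysis and hypoxia 6 were higher in TA and 1, *Epas1* (HIF-2alpha), was higher in D. *Hk2* was at 920.4 ± 221 in TA and 156 ± 129 in D and *Eno2* at 145 ± 55.3 and 5.37 ± 7.54 (adjusted p = 0.000154 and 3.39e-05), while the glucose transporter *Slc2a1* was at 2890 ± 1411 and 3198 ± 725 (adjusted p = 0.746). Immediate early and heat shock genes, which respond to the dissociation of tissue, were higher in TA for 7 of 21, with *Fos* at 12710 ± 5968 in TA and 3283 ± 1092 in D and *Egr2* at 909.7 ± 428 and 63.8 ± 51. No heat shock gene was among the 7. Of 25 genes induced by interferon 3 (*Oas2*, *Ifit1* and *Irf7*) were higher in TA, but 1 without TA replicate 2 or D replicate 5. Genes of vascular tone and coagulation divided, 7 of 21 higher in TA (4 with edgeR) and 6 higher in D, with *Edn1* (endothelin) rising from 448 ± 305 to 1334 ± 315 and *Tfpi* at 2037 ± 315 and 2093 ± 236 (adjusted p = 0.0216 and 0.914).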

How the data were processed

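RNA from sorted cells was amplified with a modified Smart-Seq2 protocol, which does not mark strand, so reads of overlapping genes cannot be told apart. The authors aligned reads with STAR 2.5.3a to GRCm38, counted them per Ensembl gene with HTSeq-count and divided the counts by DESeq2 1.10.1 size factors. The deposited values are these normalized counts (unit: signal) for 53465 genes. In every library 100% of them were whole multiples (tolerance 0.001) of its smallest value, which gave the reads per gene. The authors' comparison tables hold fold changes and p-values and were not used. Where no library of a population held more than 3 reads of a gene, folds were taken against a floor of 3 reads per library. This floor reflects counting error alone, because PCR copies were not told apart.

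Log2(normalized count + 1) of genes with a mean of at least 5 over all 15 libraries was fitted with limma 3.58.1 in R 4.3.3 (1 coefficient per population, trend, two-sided, Benjamini-Hochberg adjusted p under 0.05 over all tested genes). Contrasts were D minus TA and the second step minus the first. Differences are on that log2 scale, which understates changes of low genes. Folds are ratios of mean normalized counts, and values after ± are SDs of 5 libraries. As alternatives edgeR 4.0.16 and DESeq2 1.42.0 were run on the recovered reads. The fit was tested on simulated counts with the same dispersion for every gene and no outlying library. These settings are simpler than the data, so the test checks only that the fit recovers set changes.

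Genes named are the 15 largest rises and falls among called genes whose libraries do not overlap (predicted genes left out), members of 47 gene lists, sort markers and genes named by the study. Members and lists were chosen with earlier results of these data known, and genes printed with their values in every library were chosen after their values were seen. Promoters came from RefSeq (GRCm38.p6). Some genes are not reported here, and the counts and medians of their lists leave them out.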

Additional observations from a re-analysis of the deposited data

Results flagged for a closer look

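A library stood apart from the other 4 of its population in 12 of 174 groups examined, where chance alone gives 8.7, by the gap to its neighbor relative to the whole range (Dixon's 95% value for 5 samples). On the mean log2(normalized count + 1), D replicate 1 kept more of the secreted Wnt antagonists (4.9 against 2.62 to 3.18 in the other D libraries) and of the angiocrine factors (3.52 against 1.94 to 2.29). D replicate 2 stood highest on the BMP and TGF-beta genes (7.52 against 6.86 to 7.04). TA replicate 5 had the highest level of mitosis genes (11 against 10.2 to 10.4). Among single genes on log2(normalized count + 1), *Zeb2* was low in D replicate 3 (5.94 against 7.22 to 7.67), *Il33* was at 0 in D replicate 2 (4.96 to 5.49 in the others) and *Wnt11* was at 1.32 in D replicate 4 and at 0 in the others. *Vegfd* (11.4 against 9.1 to 9.75) and *Mmp3* (14.4 against 12.7 to 13.1) were high in TA replicate 2, where *Ets1* was low (11 against 12.3 to 12.7). *Lama4* was high in TA replicate 1 (13.2 against 12.2 to 12.4), and *Cd36* was low in D replicate 1 (13.8 against 14.8 to 15.1).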

How the results depend on the processing

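No called gene changed sign in any alternative. The median log2 difference of all genes was -0.24, and 0.101 after quantile normalization, a shift that leaves the list directions given above in place except where stated. The 3199 calls became 2117 with quantile normalization and 5054 with array weights. Calls higher in TA became 1206 and 3262, and calls higher in D became 1792 with array weights. Without 1 library they ranged from 2417 (without D replicate 4) to 3501 (without TA replicate 1), with 1711 to 2414 higher in TA and 696 to 1301 higher in D, the lowest again without D replicate 4. The 526 genes that differed between the steps became 325 with no minimum mean, 325 with quantile normalization, 841 with array weights, 918 with the replicate block and 1544 with DESeq2, and ranged from 193 to 784 without 1 library. Without replicate 1 of every population 3973 genes were called, 2585 of them higher in TA and 1388 in D. In that fit genes higher in TA went from 8 to 7 in the mast cell list and from 10 to 9 in the melanoma list. They went from 13 to 10 in the axon guidance list and from 8 to 11 in the mural list. Leaving out TA replicates 1 and 3, an alternative chosen after seeing the data, gave 3462. Calls numbered 2570 with edgeR and 4202 with DESeq2. With the EVP libraries left out of the limma fit 2752 genes were called, 1767 higher in TA and 985 in D. Of these, 2616 were also called in the main fit.

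With the replicate number as a block 4047 genes were called between TA and D. Deviations of same-numbered TA and D libraries correlated at 0.491, 0.0605, -0.00425, 0.359 and 0.437, not every library correlated best with its own number, and the numbers were not taken as pairs.

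The cause of these shifts was not tested. No D library held more than 3 reads of *Wnt11*, so the fold of its fall is a lower bound.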
